A study of Homo sapiens with 7 samples.

Results

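The BCL2 family was followed through 10 genes, taken by name from the 19978 genes of the counts table: the BH3-only members PMAIP1, BBC3, BCL2L11, BMF and BID, the effectors BAX and BAK1, and the anti-apoptotic members BCL2, BCL2L1 and MCL1. All 10 passed the expression filter and were tested. HEK-293 is an established cell line of human embryonic kidney origin, transformed with adenovirus DNA. Control cells (2 samples) were kept for 48 h in medium of pH 7.4 with DMSO, SRPIN340 cells (2 samples) for 48 h at pH 7.4 with 10 µM of this inhibitor of SR protein kinases, and acidosis cells (3 samples) for 48 h in medium acidified to pH 6.6 with DMSO. The samples were separate biological repeats according to the study's methods, and every group carried the same DMSO vehicle and the viral genes of the line, among them a BCL2-like gene. Viral transcripts were not analysed here.

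The BCL2 family controls whether the outer mitochondrial membrane is opened. Anti-apoptotic members hold the effectors BAX and BAK1 in check, and BH3-only proteins, raised or activated by stress, fill the binding groove of the anti-apoptotic members or engage the effectors directly. Pairs differ in affinity: the PMAIP1 product (NOXA) binds mainly MCL1 and promotes its degradation, whereas the BBC3 product (PUMA) and the BCL2L11 product (BIM) bind all the main anti-apoptotic members. Once the membrane is opened, cytochrome c leaves the mitochondria and the caspases are switched on.

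In acidosis the classes split internally. PMAIP1 and BBC3 rose and BMF fell among the BH3-only genes, MCL1 and BCL2 rose and BCL2L1 fell among the anti-apoptotic genes, and the effectors BAX and BAK1 were 1.20-fold and 1.19-fold below control, of which BAX passed the test. Of the 10 members, 5 passed the test higher and 3 lower in acidosis (Benjamini-Hochberg adjusted p under 0.05, edgeR quasi-likelihood test over all genes), beside 32.5% and 34.2% of all tested genes, so the members' share lay near the background. With an absolute log2 fold change over 1 as well, 3 members were called higher (PMAIP1, BBC3 and MCL1) and 2 lower (BMF and BCL2L1), beside 14.4% and 19.1% of all genes. The median log2 fold change was 0.067 over the members and -0.052 over all tested genes. With SRPIN340, BAX was the member that passed the test, and it was lower.

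Library totals were 23695530 and 24110460 counts in control, 21788457 and 22425450 with SRPIN340, and 13615816 to 21370143 in acidosis. The 100 most abundant genes took 15.15% to 15.37% of the counts at pH 7.4 and 24.06% to 24.81% in acidosis, and mitochondrially encoded genes took 2.378% to 2.887% and 0.307% to 0.346%. Scaling factors (TMM) were 1.172 to 1.21 at pH 7.4 and 0.782 to 0.800 in acidosis. With total counts alone as the scale, the median change over all genes in acidosis moved by -0.57 on the log2 scale, to -0.63, and the split of calls went from 2145 higher and 2840 lower to 815 and 5202. The summed level of 6 HEK-293 markers was 1396 to 1440 CPM (counts scaled to a common library size) in control, 1401 to 1460 with SRPIN340 and 3485 to 3500 in acidosis, where 4 passed higher and 2 lower. PAX2, a kidney lineage marker among them, was down from 6.49 and 7.06 CPM in control to 1.19 to 2.48 CPM. Of 8 markers of other cell types, summed to 39.3 to 40.1, 38.5 to 47.6 and 74.5 to 78.5 CPM, CD3E was at 0 and PTPRC, PECAM1, COL1A2, ALB and HBB were under 1 CPM in every sample, with COL1A1 and CD68 carrying most of the sum. The part of these shifts in the results that follow was not tested.

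The sequences upstream of PMAIP1 and BBC3, which rose most among the members, and of BCL2L1, which fell most, are shown here because the acidosis result turns on these genes. They are the 250 bases before the RefSeq start (GRCh38.p14), read 5′ to 3′ on the gene's strand: chr18:59899746-59899995 (+) for PMAIP1, chr19:47232668-47232917 (-) for BBC3 and chr20:31722869-31723118 (-) for BCL2L1. Capitals mark matches to the core of the cyclic AMP response element or to an AP-1 site, the sites known to bind ATF and JUN proteins.
PMAIP1: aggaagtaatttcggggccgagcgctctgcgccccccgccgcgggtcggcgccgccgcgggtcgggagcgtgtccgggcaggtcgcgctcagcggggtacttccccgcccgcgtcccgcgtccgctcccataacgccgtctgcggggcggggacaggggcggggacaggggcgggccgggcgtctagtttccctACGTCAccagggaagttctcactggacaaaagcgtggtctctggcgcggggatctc
BBC3: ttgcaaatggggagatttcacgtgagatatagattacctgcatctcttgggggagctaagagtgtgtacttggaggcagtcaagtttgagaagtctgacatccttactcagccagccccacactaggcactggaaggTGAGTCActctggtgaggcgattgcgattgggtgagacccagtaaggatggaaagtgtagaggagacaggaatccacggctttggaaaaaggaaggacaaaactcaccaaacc
BCL2L1: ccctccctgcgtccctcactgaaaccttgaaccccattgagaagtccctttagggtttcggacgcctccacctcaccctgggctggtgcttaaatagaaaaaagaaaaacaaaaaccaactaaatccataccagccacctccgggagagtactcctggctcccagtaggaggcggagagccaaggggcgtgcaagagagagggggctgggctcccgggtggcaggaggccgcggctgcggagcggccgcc
The 7 motifs were searched on both strands. RefSeq start sites were matched for 9 of the 10 members, with 15 windows in all. PMAIP1 held the cyclic AMP response element core (ACGTCA) at positions -56 to -51 from the start, a motif found in 7.1% of 35116 windows, and 4 GC boxes (GGGCGG), a motif found in 42.6%. BBC3 held an AP-1 site (TGANTCA, in 6.57% of windows) at -113 to -107, an E-box (CACGTG, 6.34%) and a CCAAT box (CCAAT, 32.0%). Its window lies 1468 bases from the start of the canonical GENCODE transcript. The BCL2L1 window held none of the 7, which also included an amino acid response element (TGATGNAA, 3.14%) and a heat shock element (GAANNTTC, 5.78%). In the printed windows no matches overlapped. A match describes the letters and shows no binding.

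PMAIP1 (ENSG00000141682.12) lies on chromosome 18 at 59899996 to 59904305 of GRCh38, on the + strand, and its canonical transcript has 2 exons. Its level was 399 and 317 CPM in control, 418 and 411 CPM with SRPIN340, and 4624, 5080 and 4921 CPM in acidosis. All 3 acidosis samples lay far above the others, a 13.6-fold difference from control (log2 fold change 3.77, SE 0.104, edgeR adjusted p = 7.58e-09). Ordered by CPM among 19978 genes, PMAIP1 stood at place 261 and 359 in control, 202 and 206 with SRPIN340, and 14, 12 and 12 in acidosis. In these bulk samples, a change in the share of cells that carry a transcript and a change in its amount per cell cannot be told apart.

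BBC3 (ENSG00000105327.18, chromosome 19, 47220822 to 47232766, - strand, 4 exons) encodes PUMA, which binds all the main anti-apoptotic members. It was at 6.59 and 8.78 CPM in control, 10.5 and 8.43 CPM with SRPIN340, and 61.9, 52.4 and 53.4 CPM in acidosis. The acidosis samples stood apart from the rest, 7.28-fold above control (log2 fold change 2.86, SE 0.172, edgeR adjusted p = 4.83e-07). The control and SRPIN340 samples overlapped.

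BMF (ENSG00000104081.14, chromosome 15, 40087890 to 40108892, - strand, 5 exons), a BH3-only gene known for its link to the cytoskeleton, went the opposite way. Its level was 38.6 and 37.1 CPM in control, 31.4 and 33.6 CPM with SRPIN340, and 12.0, 10.1 and 16.3 CPM in acidosis. Each acidosis sample was below each sample at pH 7.4, and the fall from control was 2.96-fold (log2 fold change -1.56, SE 0.17, edgeR adjusted p = 2.52e-05).

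BID (ENSG00000015475.19, chromosome 22, 17734138 to 17774770, - strand, 6 exons), which caspase-8 cleaves to link death receptors to mitochondria, was at 25.4 and 24.0 CPM in control, 28.0 and 28.1 CPM with SRPIN340, and 28.9, 34.6 and 33.4 CPM in acidosis. The groups did not overlap, but the gap was small. The log2 fold change in acidosis was 0.38 (SE 0.116, edgeR adjusted p = 0.0146), and on total counts alone it turned to -0.19 and did not pass. BCL2L11 (ENSG00000153094.25, chromosome 2, 111119378 to 111168444, + strand, 4 exons) was at 51.4 and 61.0 CPM in control, 40.7 and 43.3 CPM with SRPIN340, and 43.9, 55.9 and 40.2 CPM in acidosis. Here acidosis and control overlapped, and the log2 fold change of -0.27 (SE 0.141) did not pass (edgeR adjusted p = 0.118). Without acidosis replicate 2, the highest of its group, it did (-0.41, edgeR adjusted p = 0.0109), as it did on total counts alone (-0.84, adjusted p = 0.000561) and with a minimum of 10 CPM (-0.37, adjusted p = 0.0358).

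**Figure D1:**
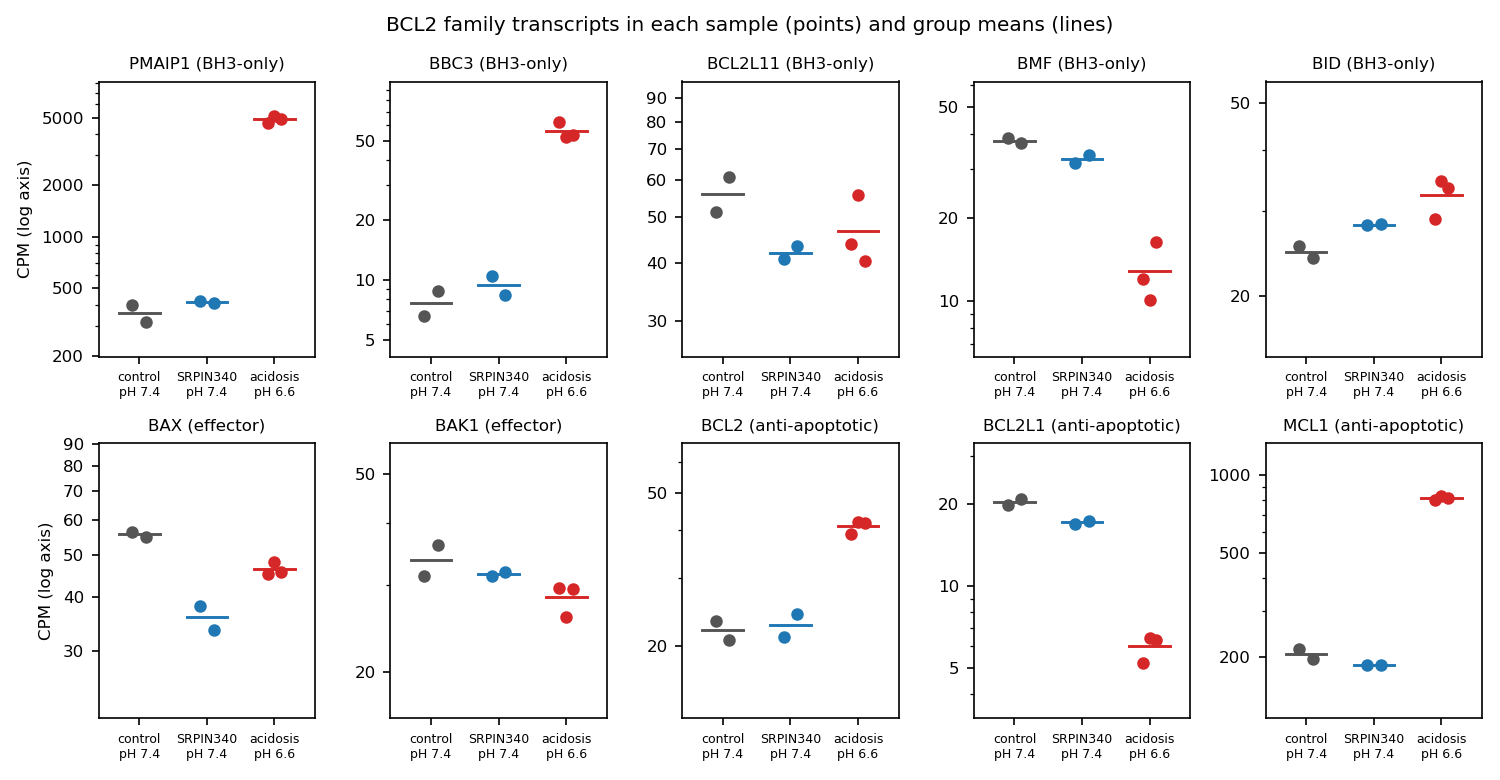
Level of each of the 10 BCL2 family members in CPM on a log axis (y axis, own range per panel) in control, SRPIN340 and acidosis (x axis). Points are samples (2, 2 and 3) and lines are group means; PMAIP1, BBC3 and MCL1 rise to a separate level in acidosis (4624 to 5080, 52.4 to 61.9 and 796 to 827 CPM), and BMF and BCL2L1 drop.

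The effectors lay nearer to control. BAX (ENSG00000087088.21, chromosome 19, 48954815 to 48961798, + strand, 6 exons), which moves from the cytosol to the membrane to form pores, was at 56.5 and 55.0 CPM in control, 38.2 and 33.6 CPM with SRPIN340, and 45.2, 48.1 and 45.7 CPM in acidosis. Control was highest, SRPIN340 lowest and acidosis between, with no overlap of any groups. In acidosis the log2 fold change was -0.27 (SE 0.0942, edgeR adjusted p = 0.0296), and it passed in 8 of 14 alternative analyses, with adjusted p up to 0.115. BAK1 (ENSG00000030110.14, chromosome 6, 33572547 to 33580293, - strand, 6 exons), the effector that resides in the membrane, was at 31.3 and 36.1 CPM in control, 31.3 and 31.8 CPM with SRPIN340, and 29.5, 25.9 and 29.5 CPM in acidosis. The acidosis samples were the lowest, with a log2 fold change of -0.25 (95% interval -0.51 to 0.0062) that did not pass (edgeR adjusted p = 0.0776). On total counts alone BAX was at -0.84 and BAK1 at -0.83, and both passed (edgeR adjusted p = 2.87e-05 and 0.000105).

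MCL1 (ENSG00000143384.14, chromosome 1, 150560895 to 150579738, - strand, 3 exons), a short-lived anti-apoptotic member and the main target of the PMAIP1 product, was at 214 and 195 CPM in control, 185 and 186 CPM with SRPIN340, and 796, 827 and 817 CPM in acidosis. Replicates were tight and the acidosis samples lay 3.98-fold above control (log2 fold change 1.99, SE 0.0652, edgeR adjusted p = 1.58e-08). The gene overlaps ADAMTSL4 on the other strand, and whether quantification used strand is not given in the sources used here. BCL2 (ENSG00000171791.14, chromosome 18, 63123346 to 63320128, - strand, 3 exons), the founding member of the family, was at 23.2 and 20.8 CPM in control, 21.1 and 24.2 CPM with SRPIN340, and 39.1, 42.1 and 41.7 CPM in acidosis. It was higher in every acidosis sample than in any other, with a log2 fold change of 0.90 (SE 0.116, edgeR adjusted p = 8.24e-05), short of the limit for a call. On total counts alone the log2 fold change of BCL2 shrank to 0.32.

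BCL2L1 (ENSG00000171552.14, chromosome 20, 31664452 to 31723989, - strand, 3 exons) encodes BCL-XL and, by alternative splicing, a pro-apoptotic short form. It was at 19.9 and 21.0 CPM in control, 16.9 and 17.4 CPM with SRPIN340, and 5.23, 6.43 and 6.36 CPM in acidosis. The acidosis samples were well below all others, 3.42-fold under control (log2 fold change -1.77, SE 0.148, edgeR adjusted p = 4.09e-06). Gene-level counts do not separate the splice forms of BCL2L1, MCL1 or BCL2L11. PMAIP1, BBC3, BMF, MCL1, BCL2 and BCL2L1 passed in acidosis, each in the same direction, in all 14 alternative analyses.

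**Figure D2:**
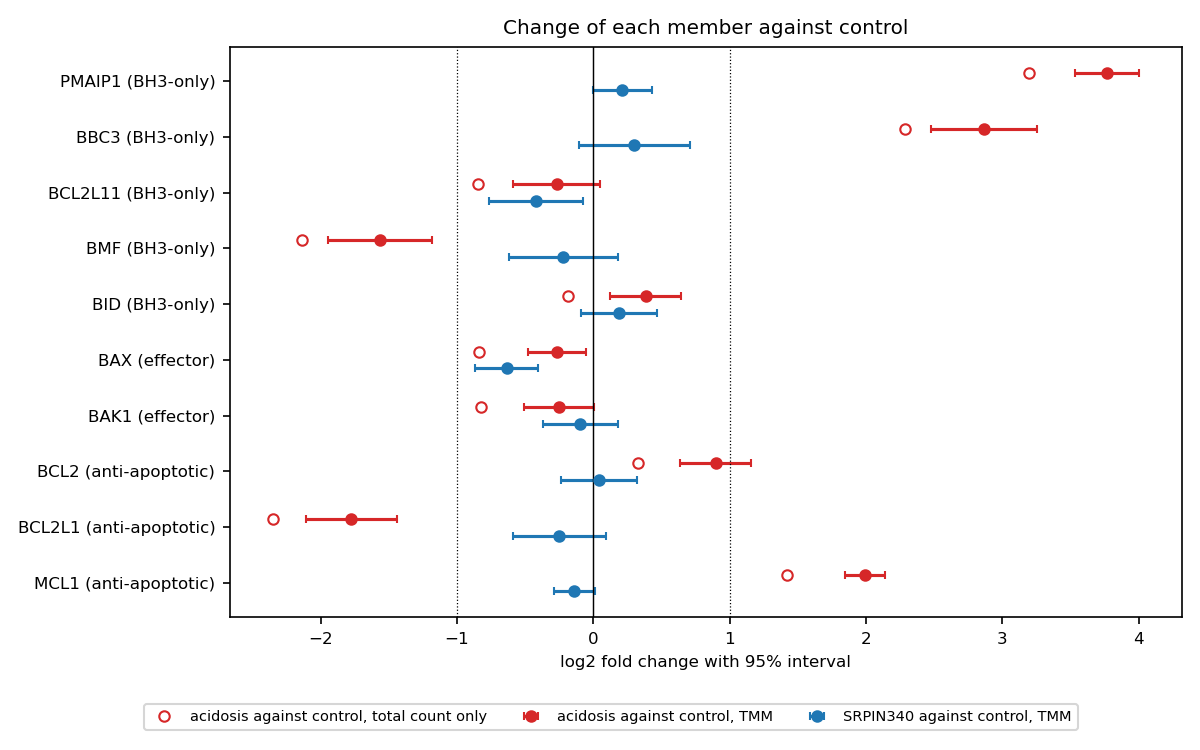
Log2 fold change against control (x axis) of each member (y axis, with its class), acidosis in red and SRPIN340 in blue; bars are 95% intervals, open circles are acidosis scaled by total counts alone, and dotted lines mark the limit of 1 for a call. PMAIP1 (3.77), BBC3 (2.86) and MCL1 (1.99) lie right of the limit and BMF (-1.56) and BCL2L1 (-1.77) left of it under both scales, while BID is at 0.38 with TMM and -0.19 on total counts.

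The inhibitor left most members near control. With SRPIN340, BAX was 1.55-fold lower than in control (log2 fold change -0.63, SE 0.103, edgeR adjusted p = 0.0205), 1 lower member of 10, where 1.53% of all tested genes passed lower. BAX did not pass when any of the 4 control or SRPIN340 samples was left out, which leaves 1 sample in a group. Its log2 fold change ranged from -0.73 to -0.55 with each sample left out in turn. It did not pass with the replicate number as a block either (edgeR adjusted p = 0.084). No member passed higher and 0 were called at the fold limit, with edgeR as with DESeq2. At an unadjusted edgeR p under 0.05, 0 members were higher and 2 were lower, BAX and BCL2L11. Over all tested genes 17.6% reached this limit in either direction, so the members' share lay near the background. The log2 fold change of BCL2L11 was -0.42 (95% interval -0.77 to -0.076, edgeR adjusted p = 0.195), and both SRPIN340 samples lay below both control samples.
For PMAIP1 the difference with SRPIN340 was 0.21 (95% interval -0.0052 to 0.43), for BBC3 0.30 (-0.10 to 0.71) and for MCL1 -0.14 (-0.29 to 0.0085), all on the log2 scale. These intervals lie below the acidosis values of PMAIP1, BBC3 and MCL1. BMF (-0.22), BID (0.18), BAK1 (-0.10), BCL2 (0.04) and BCL2L1 (-0.25) did not pass either, and their intervals all held 0.

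Acidosis and SRPIN340 were also compared with each other in the same fit. Against SRPIN340, 5 members passed higher in acidosis (32.8% of all genes did) and 2 lower (35.0%). PMAIP1 was higher by 3.56 on the log2 scale, BBC3 by 2.56, MCL1 by 2.13 and BCL2 by 0.86, and BMF fell by 1.34 and BCL2L1 by 1.52 (edgeR adjusted p at most 0.000111). On total counts alone BCL2 was at 0.24 and did not pass (adjusted p = 0.0848 with edgeR). BAX was the fifth higher member, at 0.37 (edgeR adjusted p = 0.00708), and on total counts alone its sign turned (-0.25). Without SRPIN340 replicate 2 it was at 0.27 and did not pass (edgeR adjusted p = 0.0969). BCL2L11 (0.15), BID (0.20) and BAK1 (-0.15) did not pass. The contrast shares its acidosis samples with the one against control, so the values stand side by side and are not independent.

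Levels of different genes were compared as CPM per kb of canonical transcript. In control the order was PMAIP1 (188.7), BAX (70.1), MCL1 (51.8), BAK1 (15.5), BID (11.3), BCL2L11 (11.0), BMF (8.07), BCL2L1 (7.93), BBC3 (4.16) and BCL2 (3.19). The samples of the neighbours BID and BCL2L11, and of BMF and BCL2L1, overlapped. With SRPIN340 MCL1 (46.9) stood above BAX (45.1), with overlapping samples, and the other members kept the order of control. In acidosis the order was PMAIP1 (2567), MCL1 (205.8), BAX (58.3), BBC3 (30.3), BID (14.8), BAK1 (13.04), BCL2L11 (9.16), BCL2 (5.95), BMF (2.73) and BCL2L1 (2.33), with overlap between BID and BAK1 and between BMF and BCL2L1. BBC3 thus stood next to last in control and just below BAX in acidosis. These places rest on a single transcript length per gene.

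The classes were summed on the same per-kb scale. The BH3-only sum was 3.73 and 3.35 times the anti-apoptotic sum in control, 4.48 and 4.36 times with SRPIN340, and 11.9, 12.5 and 12.3 times in acidosis. PMAIP1 made up 82.4% to 86.3% of the BH3-only sum in control and 97.7% to 97.9% in acidosis. Without PMAIP1 the ratio went the other way, from 0.513 and 0.589 in control to 0.277, 0.264 and 0.258 in acidosis. MCL1 made up 81.5% and 83.0% of the anti-apoptotic sum in control and 96.0% to 96.3% in acidosis. The effector sum was 85.4 and 85.8 CPM per kb in control, 62.4 and 57.0 with SRPIN340, and 70.4, 72.5 and 71.0 in acidosis.

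Ratios of 2 genes within a sample do not depend on the scale between libraries. PMAIP1 to MCL1, in CPM, was 1.86 and 1.63 in control, 2.26 and 2.22 with SRPIN340, and 5.81, 6.14 and 6.03 in acidosis. Every acidosis sample was above every other sample. BBC3 to BCL2L1 was 0.332 and 0.418 in control, 0.621 and 0.484 with SRPIN340, and 11.9, 8.16 and 8.39 in acidosis, the widest shift of the 4 ratios taken (4.65 on the log2 scale). BAX to BCL2 went down, from 2.44 and 2.65 in control and 1.81 and 1.39 with SRPIN340 to 1.16, 1.14 and 1.10 in acidosis. BCL2L11 to BCL2 was 2.22 and 2.94 in control, 1.93 and 1.79 with SRPIN340, and 1.12, 1.33 and 0.965 in acidosis. Acidosis and control did not overlap in these ratios, which are built from the member values given above and add no separate evidence. How often other gene pairs separate in this way was not counted. An exact two-sided permutation test of 3 against 2 samples gave p = 0.1 for each, the smallest p it can give. None could pass 0.05, and without overlap that p was fixed in advance, so the test decides nothing.

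**Figure D3:**
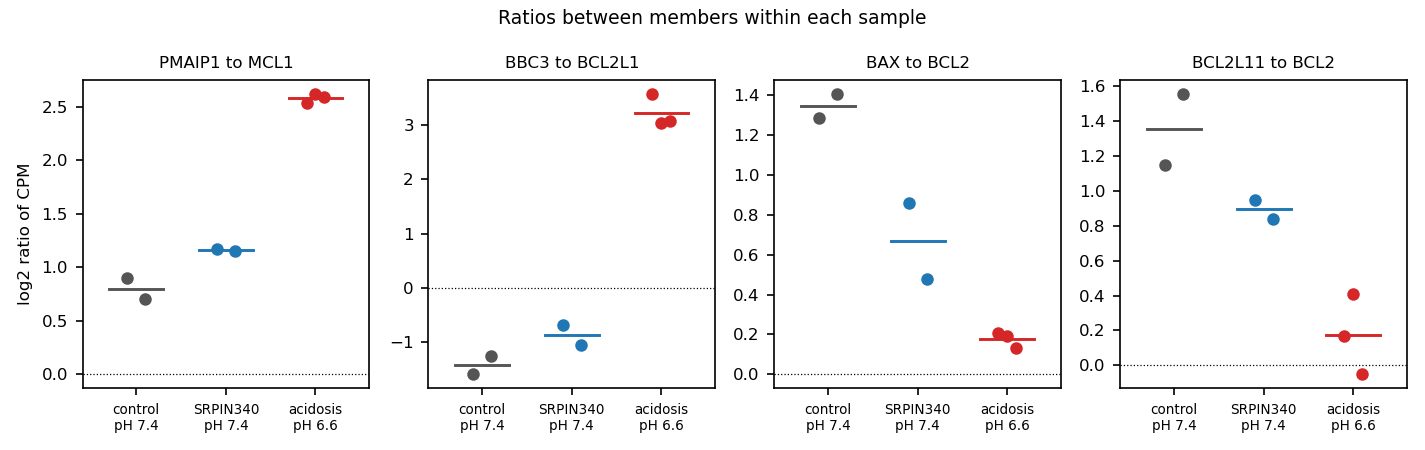
Log2 ratio of the CPM of a pair of members within each sample (y axis) in control, SRPIN340 and acidosis (x axis); points are samples, lines are group means and the dotted line marks equal CPM. PMAIP1 to MCL1 and BBC3 to BCL2L1 are higher in all 3 acidosis samples than in any other, and BAX to BCL2 and BCL2L11 to BCL2 are lower.

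The 3′ untranslated regions of the members were searched for AU-rich letters, the ATTTA pentamer and the TTATTTATT nonamer, which are typical of short-lived mRNAs. PMAIP1 held 5 pentamers in 1552 bases (3.22 per kb), MCL1 10 in 2817 bases (3.55 per kb) and BCL2 13 in 5279 bases (2.46 per kb). Of 14814 tested genes with such a region, 73.0% held a pentamer, the median was 1.67 per kb, and 24.2% and 20.1% had at least as many per kb as PMAIP1 and MCL1. The nonamer was present once in PMAIP1 and once in BCL2, and in 9.63% of all these genes. BCL2L1 held 3 pentamers (2.01 per kb), BCL2L11 8 (1.90), BID 2 (1.39) and BMF 5 (1.28), and BBC3, BAX and BAK1 held 0. PMAIP1, MCL1, BCL2, BCL2L1 and BCL2L11 lay above the median per kb, and BID, BMF, BBC3, BAX and BAK1 under it. Whether these letters bear on the changes was not tested.

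The genes whose levels over the 7 samples lay closest to those of PMAIP1, by Euclidean distance of centred log2 CPM among 13460 genes, were H3-7 (0.238), ZBED6 (0.314), HERPUD1 (0.378), TNFAIP3 (0.448) and CREB5 (0.451). HERPUD1, a gene of the endoplasmic reticulum stress response, was at a mean of 30.8 CPM in control, 30.1 with SRPIN340 and 376.7 in acidosis. TNFAIP3, an inhibitor of NF-κB signaling, was at 9.43, 13.5 and 143.3 CPM, and CREB5, a factor of the cyclic AMP response element family, at 30.5, 35.0 and 519.3 CPM. ZBED6 shares its strand and locus with ZC3H11A, so its counts are uncertain.

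Beyond the members, 13 of 16 further BCL2 family genes could be tested, and 5 passed higher and 3 lower in acidosis, 2 and 2 of them called, with a median log2 fold change of -0.23. Over all genes 32.5% passed higher and 34.2% lower, and 14.4% and 19.1% were called, so this list too lay near the background. On total counts alone 2 of the 13 passed higher and 8 lower, where 2413 and 8179 of all 14863 genes did. HRK, a BH3-only gene known mainly from neurons, was at 7.93 and 7.23 CPM in control, 14.9 and 10.5 CPM with SRPIN340, and 45.8, 43.3 and 39.5 CPM in acidosis. It was highest in acidosis (log2 fold change 2.50, SE 0.173, edgeR adjusted p = 1.19e-06), and with SRPIN340 its 0.75 did not pass with edgeR (adjusted p = 0.0674) and did with DESeq2 (adjusted p = 0.00793). BNIP1, a BH3-containing SNARE protein, rose by 1.72 on the log2 scale. BCL2L2, the anti-apoptotic BCL-w gene, rose by 0.73, but a readthrough gene, BCL2L2-PABPN1, shares its strand and its counts are uncertain. The mitophagy receptors diverged: BNIP3 fell by 1.79 on the log2 scale, from 30.1 and 30.1 CPM in control to 7.60, 9.73 and 9.03 CPM, whereas BNIP3L passed higher at 0.40 and BCL2L13 at 0.60. On total counts alone BNIP3L turned to -0.17 and BCL2L13 was at 0.02. BOK, an effector-like gene, fell by 1.47 on the log2 scale. BCL2L12 was at -0.75 (edgeR adjusted p = 0.0217), overlaps IRF3 on the other strand, and was at -0.30 and did not pass without control replicate 2.
The BH3-only genes BAD (-0.35) and BIK (-0.77), together with BNIP2 (-0.23), BECN1 (0.14) and BCL2L15 (-0.60), did not pass. BCL2A1, BCL2L10 and BCL2L14 were under 0.35 CPM in every sample and were not tested. With SRPIN340, 0 of these 13 genes passed with edgeR and 1, HRK, with DESeq2, beside 342 of 14863 and 882 of 11981 genes. An unadjusted edgeR p under 0.05 was reached by 3 of the 13, beside 17.6% of all tested genes.

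The lists that follow are described by their counts, to be read beside the same shares over all genes. On total counts alone, 2413 of all 14863 genes passed higher in acidosis against control and 8179 lower (815 and 5202 called, median log2 fold change -0.63). Each list's values on total counts are to be read beside these. Downstream of the membrane, the list of outer membrane and released factors had 3 of 8 genes higher and 5 lower in acidosis (1 and 2 called). On total counts alone 2 passed higher and 5 lower (0 and 5 called, median log2 fold change -1.06). VDAC2, the channel that holds BAK1 at the membrane, rose by 1.03 on the log2 scale, from 161 and 184 CPM to 353, 336 and 367 CPM, but was not called on total counts alone. VDAC3 fell by 1.34 and AIFM1, an inner membrane flavoprotein, fell by 1.41. Of 7 apoptosome and caspase genes, 2 passed higher and 3 lower (1 and 2 called), and on total counts alone 1 higher and 5 lower (1 and 3 called). CYCS, which encodes cytochrome c, rose from 182 and 165 CPM to 556, 581 and 628 CPM (log2 fold change 1.76), while APAF1, the scaffold it activates, fell from 84.5 and 72.5 CPM to 16.1, 16.9 and 15.5 CPM (-2.28). The 2 partners of the apoptosome core thus moved in opposite directions. CASP6, an executioner caspase, fell from 21.1 and 19.8 CPM to 2.32, 4.77 and 2.58 CPM (-2.70).

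Of 10 IAP genes and antagonists, 9 were tested, and 5 passed higher and 3 lower (2 and 1 called, median 0.63). On total counts alone 2 passed higher and 4 lower (2 and 3 called, median 0.05). XIAP, the direct caspase inhibitor, rose by 1.98 on the log2 scale, from 115 and 119 CPM to 444, 465 and 476 CPM, and BIRC3 by 1.99. XAF1, an interferon-induced antagonist of XIAP, was at 6.74 and 5.02 CPM in control, 1.11 and 1.03 CPM with SRPIN340, and 0.475, 0.918 and 0.258 CPM in acidosis. It was low in both treatments, by -3.43 on the log2 scale in acidosis and -2.46 with SRPIN340 (edgeR adjusted p = 0.0284), the 1 gene of the 63 tested in these other lists that passed with the inhibitor. That call was lost without any of the 4 control or SRPIN340 samples (adjusted p 0.105 to 0.267) and with the replicate number as a block (0.0672). With SRPIN340, 12 of the 63 genes had an unadjusted edgeR p under 0.05, 6 in each direction, beside 17.6% of all tested genes. With DESeq2 3 of them passed at an adjusted p under 0.05 (HRK, BIRC5 and ATF3) and 0 were called, where 882 of 11981 genes passed. XAF1 had no adjusted p with DESeq2 in this contrast, so it was not judged there.

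The death receptor list had 11 of 12 genes tested, with 3 higher and 7 lower in acidosis (1 and 6 called, median -1.08). Over all genes 34.2% passed lower, 19.1% were called lower and the median was -0.052. On total counts alone 1 gene of the list passed higher and 8 lower, where 2413 and 8179 of all 14863 genes did and their median was -0.63. RIPK1, the kinase of the TNF receptor complex, fell from 51.8 and 50.2 CPM to 11.3, 12.9 and 8.77 CPM (log2 fold change -2.22), and the adaptor TRADD fell by 1.83 on the log2 scale. TNFRSF10B, the TRAIL receptor DR5, rose from 96.3 and 100.4 CPM to 309.8, 277 and 284.1 CPM (1.56). Its ligand TNFSF10, named after its values were seen, was at 1.55 and 1.37 CPM in control, 1.66 and 0.797 CPM with SRPIN340 and 0 in all 3 acidosis samples, where a count of 0 allows up to 0.178, 0.275 and 0.258 CPM. It counts among the 6 lower calls, and its fitted fold change is no bound.

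Of 5 genes that control MCL1 protein turnover, MARCHF5, a mitochondrial ubiquitin ligase, rose by 1.00 on the log2 scale, BTRC, a ligase subunit, fell by 1.48, and 1 passed higher and 2 lower in all. On total counts alone 1 of the 5 passed higher and 4 lower, and MARCHF5 was not called. Of 10 transcription factors of BH3-only genes, 8 passed higher and 2 lower (4 and 1 called, median 0.76), where 32.5% of all genes passed higher and 14.4% were called higher. On total counts alone 4 passed higher and 2 lower, with a median of 0.18, and FOXO1, FOXO3, DDIT3 and E2F1 no longer passed. JUN went from 149.5 and 142.5 CPM in control to 5890, 5554 and 6196 CPM (5.33), and ATF3 from 40.2 and 33.7 CPM to 1793, 1818 and 1850 CPM (5.62). ATF4, the effector of the integrated stress response, rose from 329 and 387 CPM to 1511, 1471 and 1572 CPM (2.08). Over all 63 tested genes of the other lists, 27 passed higher and 25 lower in acidosis (12 and 15 called), with a median log2 fold change of -0.023.

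**Figure D4:**
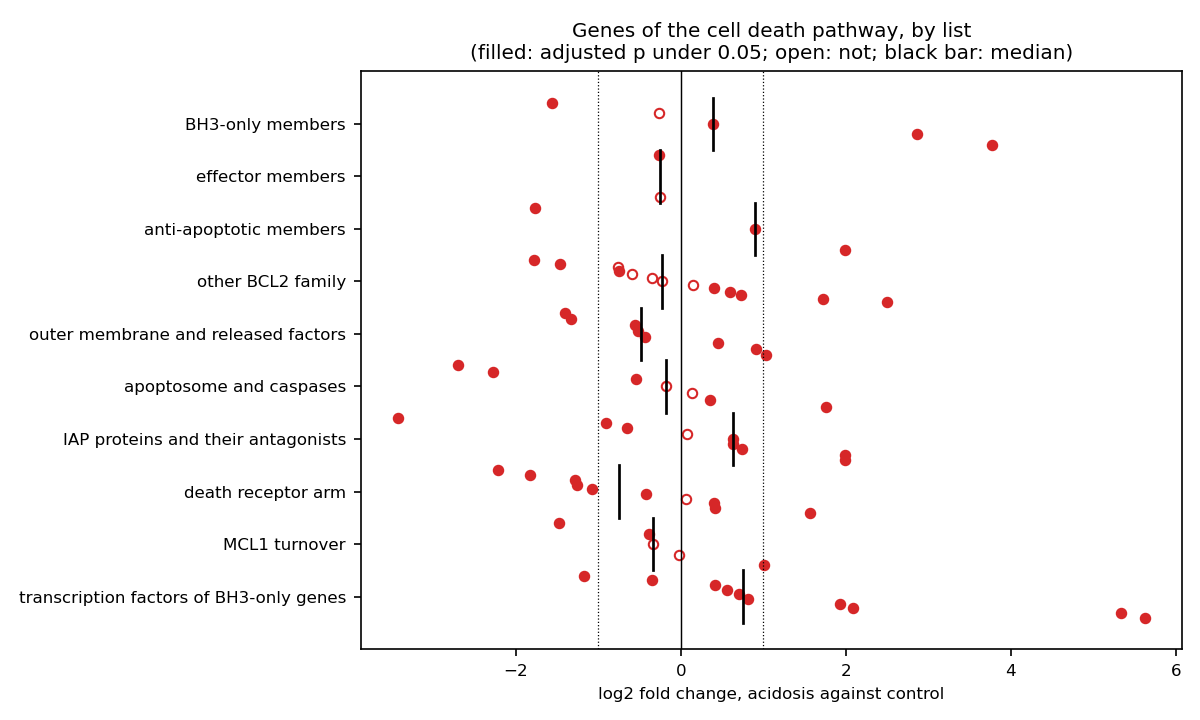
Log2 fold change in acidosis against control (x axis) of each tested gene, grouped by list (y axis); filled points passed at an adjusted p under 0.05, open points did not, black bars are list medians and dotted lines mark the limit of 1. The death receptor median, shown without TNFSF10, lies left of 0, and JUN (5.33) and ATF3 (5.62) lie farthest right.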

How the data were processed

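Poly(A) RNA of 7 samples (2 control, 2 SRPIN340, 3 acidosis, grouped by their titles) was sequenced by the authors (the table has 1 column per repeat), trimmed with Trimmomatic 0.39 and Trim Galore 0.6.6, quantified with Salmon 1.5.1 on the Gencode transcriptome of GRCh38.p13 and collapsed to genes by tximport, whose option is not given in the sources used here. The deposited values are estimated counts, not normalized between samples. They were rounded and tested with edgeR 4.0.16 (R 4.3.3; filterByExpr, TMM, quasi-likelihood, all 7 samples in 1 fit, 14863 genes, Benjamini-Hochberg adjustment). Levels are CPM, the count divided by the TMM-scaled library total. On simulated counts with 200 of 14863 genes changed by 2 on the log2 scale, 92% were recovered for acidosis against control, with 10 false calls, and 86% for SRPIN340 against control, with 11. These changes were few and even in both directions, whereas 9917 genes passed in acidosis. The figures therefore do not give the error rates of the acidosis contrast. A gene of the lists is not reported here by name. Members and lists were chosen with earlier results of these data known. Named were all members, every further BCL2 family gene, the 3 largest calls of each other list with a mean of at least 1 CPM, listed genes that passed with SRPIN340, and the 5 genes most like PMAIP1 (pseudocount 0.5). Alternatives were DESeq2 1.42.0, the scaling, filter, samples in the fit, replicate block, fold limit (0.58) and each sample left out. Symbols, transcripts and coordinates come from GENCODE release 44 (19731 of 19978 IDs had a symbol), promoters from RefSeq, both read in Python 3.11.15 (matplotlib 3.10.9 for plots). Replicate pairs differed by more than sampling noise (chi-square per degree of freedom 6.97 to 12.4).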

Additional observations from a re-analysis of the deposited data

How the results depend on the processing

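Few samples per group limit the small changes, and library totals are lower in acidosis. On total counts alone, log2 fold changes in acidosis against control reversed for BID (-0.19), BNIP3L (-0.17) and BECN1 (-0.43), and in acidosis against SRPIN340 for BCL2L11 (-0.46), BID (-0.41) and BAX (-0.25), and BCL2 did not pass there (0.24). BAX did not pass against SRPIN340 without SRPIN340 replicate 2 (0.27). With a sample left out, BCL2L15 in acidosis ranged from -1.10 to 0.12 (reversed without control replicate 1), and with SRPIN340 BAK1 ranged from -0.196 to 0.010 (reversed without control replicate 2) and BCL2 from -0.061 to 0.14 (reversed without control replicate 2, -0.037, or SRPIN340 replicate 2). These 3 had not passed. The causes were not tested.

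The number of genes called was 3125 with a minimum of 10 CPM and 7824 at a fold limit of 0.58 for acidosis against control, and 3193 and 8000 against SRPIN340, fewer genes being tested in the first case and the limit being lower in the second. For SRPIN340 against control, 342 genes passed in the main analysis, 882 with DESeq2 and 604 with only the groups compared, and 14 to 526 with each sample left out in turn. Of these, 48 were called in the main analysis, 143 at the fold limit of 0.58 and 11 to 66 with a sample left out. Members that passed with SRPIN340 numbered 0 to 1 with a sample left out, and 1 was called at a fold limit of 0.58. Of the other lists, 3 genes passed with DESeq2, and 0 were called with DESeq2 or a minimum of 10 CPM. XAF1 had no adjusted p in either of these analyses.

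Deviations of same-numbered samples from their group means were weakly correlated (r -0.0267 between control and SRPIN340, -0.182 and -0.0955 between control and acidosis, 0.0494 and 0.0836 between SRPIN340 and acidosis). In a group of 2 samples the deviations mirror each other, so these values cannot decide whether the numbers mark pairs. With the replicate number as a block, 51 genes passed and 27 were called with SRPIN340, 0 members passed, and 0 genes of the other lists passed or were called. In acidosis the block took BID to an adjusted p of 0.0589 and BAX to 0.0965 with edgeR, and with SRPIN340 it took BAX to 0.084. It moved no other member across the adjusted p limit.

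Of 140 analyses of single members in acidosis, 125 kept direction and side of the adjusted p limit, 9 no longer passed, 5 newly passed and 1 reversed. BAX no longer passed with DESeq2 (adjusted p = 0.0519). BID no longer passed with a minimum of 10 CPM (edgeR adjusted p = 0.0525) or without control replicate 2.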
